A study of Mus musculus with 58 samples.

Results

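Active beige adipocytes were compared with white adipocytes of the same fat depot, the subcutaneous inguinal white adipose tissue of the mouse. The comparison used 4 cold beige and 5 warm white mRNA libraries, 9 of the 22 mRNA libraries and of the 58 samples of the series. Members were all 11603 rows of the deposited expression table, each an identifier with a gene symbol. They held 11544 distinct symbols, and 117 rows had a symbol that occurs more than once. For lists and named genes the most abundant row of a symbol was taken. The measure was the mean log2 CPM of the cold beige libraries minus that of the warm white libraries. CPM is a gene's reads relative to all reads of its library. The mice were of strain C57BL/6J, fed a chow diet and kept on equal light and dark phases, and came from the lines Ucp1-NuTRAP and Adipoq-NuTRAP. In NuTRAP mice a Cre driver switches on a GFP-tagged ribosomal protein in the cells that express the driver, and RNA bound to tagged ribosomes is pulled down with an antibody to GFP (translating ribosome affinity purification, TRAP). The labels do not say which line each library came from. The cold beige mice had spent 1 week at 4 °C. The warm white mice were born and kept at 30 °C according to the treatment protocol, while a name in their sample descriptions contains the word rewarm, so their temperature history is not certain. Cell type, temperature history and, where the lines differ, the Cre driver differed together between these groups and cannot be told apart. The labels call the libraries biological replicates and do not say whether animals were pooled or shared. The p-values therefore measure the spread between libraries, shared over the groups of all 22 mRNA libraries.

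Beige adipocytes are thermogenic fat cells that appear within white depots under cold. Norepinephrine from sympathetic nerves acts on their adrenergic receptors, cAMP activates protein kinase A, stored triglyceride is broken down, and the fatty acids both fuel the mitochondria and open uncoupling protein 1, which lets protons return to the matrix without making ATP, so that the energy leaves as heat. White adipocytes store triglyceride in a single large droplet and secrete hormones such as leptin and adiponectin.

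Reads per library are not known from log2 CPM values. The libraries' summed CPM differed little, from 0.932 to 1.09 relative to their mean, and median values lay between 4.86 and 4.90 log2 CPM. The ribosomal RNA precursor Rn45s, a measure of how well ribosomal RNA was removed, took 0.436 to 1.15% of the summed CPM in cold beige and 2.06 to 2.41% in warm white libraries, and its part in the results below was not tested. Steps in the lowest values split the libraries into 2 processing sets that the labels do not name. Batch 1 held cold beige libraries 1 and 4 and warm white libraries 1, 2 and 5, and batch 2 held the other 4. With group means fitted to all 22 libraries, the difference between batches was at most 0.005 log2 units in any row. A batch term had thus already been removed from the deposited values, and comparisons by batch below use such values. Values at or below -5 log2 CPM are a floor set by the processing and are called undetected. The labelled identities were visible in the markers: Ucp1 separated the groups without overlap, and all 10 general adipocyte markers of the cell type list were above the floor in every library.

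Most of the measured transcriptome differed. Of 11603 rows, 8731 passed the test (limma, two-sided, Benjamini-Hochberg adjusted p under 0.05), which is 75.2% of all rows. Of all rows, 38.0% were higher and 37.2% lower in cold beige, 4414 and 4317 rows. With a difference of at least 1 log2 unit as well, 4057 rows (35.0%) passed, of which 2260 rows (19.5%) were higher and 1797 (15.5%) lower, and 407 were higher and 181 lower by at least 3 log2 units. The library values of the groups did not overlap in 7376 rows (63.6%). The median difference over all rows was 0.009 log2 units. Within batch 1 alone 6374 rows passed and within batch 2 alone 7541, and none of the rows called in the full fit was called in the opposite direction in either. Any gene group is read below against these shares, since a list with 38.0% of its members higher and 37.2% lower looks like the table as a whole.

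**Figure D1:**
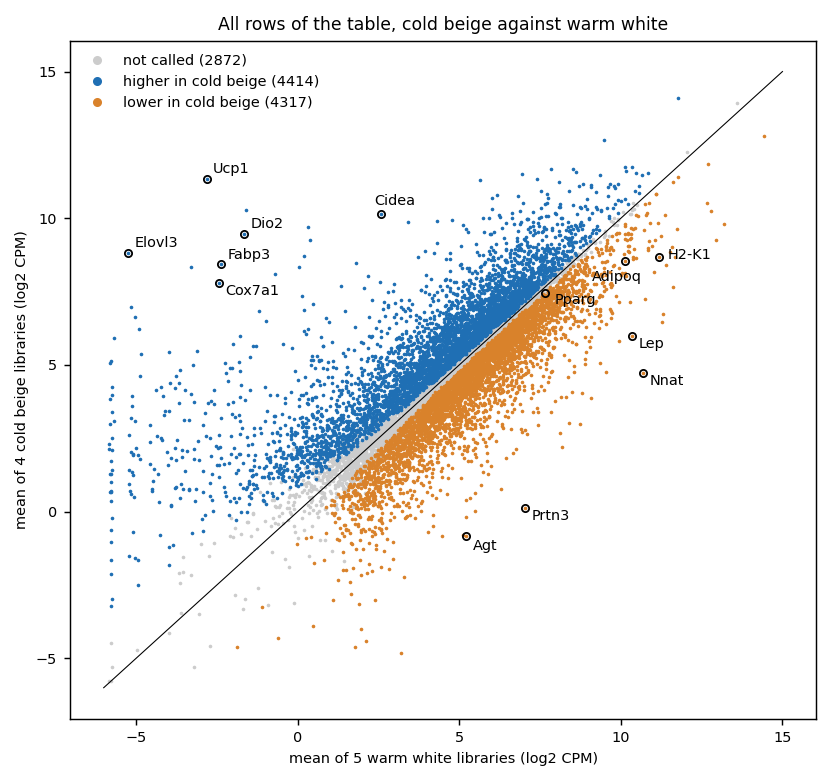
Mean log2 CPM of the 4 cold beige libraries (vertical axis) against the mean of the 5 warm white libraries (horizontal axis) for every row, with the line of equal values and 13 genes circled. Blue marks the 4414 rows called higher in cold beige, orange the 4317 called lower, and grey the rows not called. Ucp1, Elovl3, Dio2, Fabp3 and Cox7a1 stand at the upper left and Prtn3, Agt, Nnat and Lep at the lower right.

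The thermogenic genes held the largest difference of the table, that of Ucp1. Of 33 measured genes of the thermogenic list, 31 were higher in cold beige and 29 of them by at least 1 log2 unit, with a median difference of 4.95. Ucp1 (GRCm38.p6, chromosome 8, 83290348 to 83298456), which encodes uncoupling protein 1, stood at 11.19, 11.16, 11.30 and 11.71 log2 CPM in cold beige libraries 1 to 4 and at -2.21, -5.59, -3.19, -1.11 and -1.99 in warm white libraries 1 to 5. All 4 cold beige libraries were high and close together, and all 5 warm white libraries lay near the bottom of the scale, 1 of them at the floor. The difference was 14.16 ± 0.52 log2 units (SE, adjusted p = 1.37e-16). Because differences against near-zero values depend on the lowest values, the same difference was computed with 1 CPM added to every value, which gave 11.07.

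Dio2 (chromosome 12, 90724552 to 90739038) encodes the deiodinase that makes active thyroid hormone inside the cell. It read 9.69, 9.11, 9.26 and 9.85 log2 CPM in cold beige and -1.14, 0.48, -0.93, -1.25 and -5.44 in warm white, the last at the floor and none near the cold beige values. The difference was 11.13 ± 0.66 (adjusted p = 6.18e-13), or 8.89 with 1 CPM added. Cidea, a lipid droplet protein of thermogenic adipocytes, was at 10.14, 10.27, 10.19 and 9.97 in cold beige and at 2.18, 3.74, 2.57, 1.71 and 2.66 in warm white, so it was clearly present in the white libraries too. Its difference was 7.57 ± 0.27 (adjusted p = 5.40e-17). Elovl3, an elongase of very long fatty acids, stood between 8.67 and 9.07 in cold beige, and it was at the floor in 4 of the 5 warm white libraries and at -2.99 in the other, a difference of 8.78 with 1 CPM added.

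Large increases were also seen in further genes that were detected in at least 1 warm white library. With 1 CPM added, the thioesterase Acot11 was higher by 9.79, the very long-chain acyl-CoA synthetase Slc27a2 by 8.08, the fatty acid binding protein Fabp3 by 8.06, the cytochrome oxidase subunit Cox7a1 by 7.44, the receptor Lgr6 by 6.93, the kininogen Kng2 by 6.56 and the retinol dehydrogenase Dhrs9 by 6.12. Lgr6, Kng2 and Dhrs9 were at the floor in 4 of the 5 warm white libraries, Slc27a2 in 2, and Fabp3 and Cox7a1 in 1. The groups did not overlap in these 7 genes, which was a condition of naming them. The smallest p-values came with close replicates. Letmd1, a mitochondrial inner membrane protein needed in brown fat, lay between 9.66 and 9.87 in cold beige and between 5.00 and 5.19 in warm white, a difference of 4.65 ± 0.07 (adjusted p = 2.62e-23). Gk, the glycerol kinase that lets adipocytes reuse glycerol, differed by 6.44 ± 0.12 and the heart-type oxidase subunit Cox8b by 6.67 ± 0.12.

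A single member of the thermogenic list was lower. Lhx8, a LIM homeobox factor reported as a marker of classical brown fat, was at 0.78, 1.07, 1.17 and 1.00 log2 CPM in cold beige and at 3.81, 3.62, 3.75, 3.12 and 3.65 in warm white, a difference of -2.58 ± 0.17 (adjusted p = 5.22e-12). Zic1, also reported for classical brown fat, was at the floor in all 9 libraries. Rows undetected in every warm white library numbered 33, and 28 of them were above the floor in every cold beige library. Among these were Cyp2b10, a cytochrome P450 of xenobiotic metabolism, at 5.38 to 6.91 log2 CPM in cold beige, A530050N04Rik at 4.85 to 5.35 and Fam131c at 4.51 to 5.65. No row was undetected in all cold beige libraries and present in all warm white ones. All 11603 rows reached 1 CPM in at least 3 of the 22 libraries, brown ones included. Which rows undetected in a group were kept thus depended on the other groups, so these counts are not set against each other.

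The sequences before the start sites of Ucp1 and Dio2 are shown because these genes encode known effectors of thermogenesis and differed strongly. Each is the 250 bases upstream of the RefSeq start on the gene's own strand (GRCm38.p6), at chr8:83290098-83290347 on the plus strand for Ucp1 and chr12:90739039-90739288 on the minus strand for Dio2. Capitals mark the full cAMP response element TGACGTCA, found once in Dio2 and not in this window of Ucp1.
Ucp1: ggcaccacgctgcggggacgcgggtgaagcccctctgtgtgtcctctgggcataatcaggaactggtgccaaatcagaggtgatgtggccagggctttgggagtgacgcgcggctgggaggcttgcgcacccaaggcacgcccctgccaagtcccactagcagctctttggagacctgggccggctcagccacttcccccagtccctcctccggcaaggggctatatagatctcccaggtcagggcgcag
Dio2: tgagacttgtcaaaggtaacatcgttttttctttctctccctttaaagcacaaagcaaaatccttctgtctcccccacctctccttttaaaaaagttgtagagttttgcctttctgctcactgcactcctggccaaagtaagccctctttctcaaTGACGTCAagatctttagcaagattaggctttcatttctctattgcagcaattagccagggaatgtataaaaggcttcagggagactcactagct

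A total of 5 motifs were searched on both strands in the RefSeq windows from 250 bases before to 50 bases after the start: TGACGTCA (the full cAMP response element, CRE), TCAAGGTCA (the extended element bound by estrogen-related receptors, ERR), the nuclear respiratory factor 1 (NRF1) element, the DR1 element of PPAR and RXR, and the core of the interferon-stimulated response element (ISRE). No overlap between motifs was removed. Windows were given for 8620 of the 11544 symbols of the table, and of these 3.72% held the CRE, 0.278% the ERR element, 12.1% the NRF1 element, 0.0232% the DR1 element and 3.55% the ISRE core. Of all 27025 symbols with a window, 2.03%, 0.466%, 5.19%, 0.0481% and 3.99% held them in the same order. Of the 27 thermogenic genes with a window, 2 held the CRE (Dio2 and Clstn3), 1 held the NRF1 element and none held the ERR, DR1 or ISRE letters. A match is a description of letters, not of binding.

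Transcription factors and coactivators of adipocytes differed in both directions. Of 57 measured, 24 were higher and 22 lower, shares of 42.1% and 38.6% that were close to the table's, and the list's median was 0.07, a sign that turned negative with a common total, with totals without the 20 most abundant genes and with quantile normalization. The coactivator Ppargc1a, which drives mitochondrial biogenesis, was at 7.32, 7.52, 7.27 and 7.43 log2 CPM in cold beige and at 4.68, 5.02, 4.65, 4.31 and 4.32 in warm white, a difference of 2.79 ± 0.13 (adjusted p = 8.53e-15). Its relative Ppargc1b differed by 2.56 ± 0.17. The nuclear receptor Ppara, which controls fatty acid oxidation, was higher by 4.44 ± 0.15, and the ETS factor Gabpa, a regulator of mitochondrial genes, by 1.45 ± 0.07. The symbol Gabpa has 2 rows, of which the more abundant was taken.

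The estrogen-related receptors, partners of these coactivators, were all higher: Esrra by 2.02, Esrrb by 3.67 and Esrrg by 7.76 (these 3 were chosen after their values were seen). The values of Prdm16, a coregulator that specifies thermogenic fat, were 5.85, 5.89, 5.96 and 5.91 in cold beige and 5.57, 5.67, 4.85, 5.07 and 4.60 in warm white, so the groups did not overlap, but the highest white library lay close under the lowest beige one. The difference was 0.75 ± 0.17 (adjusted p = 0.000377), and it was 0.60 with adjusted p = 0.132 within batch 1 alone.

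Pparg, the master regulator of all adipocytes, was not called. It stood at 7.32, 7.35, 7.49 and 7.69 in cold beige and at 7.32, 7.45, 7.73, 7.53 and 8.23 in warm white, overlapping ranges with a difference of -0.19 ± 0.14 (adjusted p = 0.218). With quantile normalization it was called lower, at -0.34 (adjusted p = 0.029). Its heterodimer partner Rxra was lower by 1.93 ± 0.07 without overlap, and Nrip1, a corepressor of energy-expending genes, was lower by 2.13 ± 0.15.

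**Figure D2:**
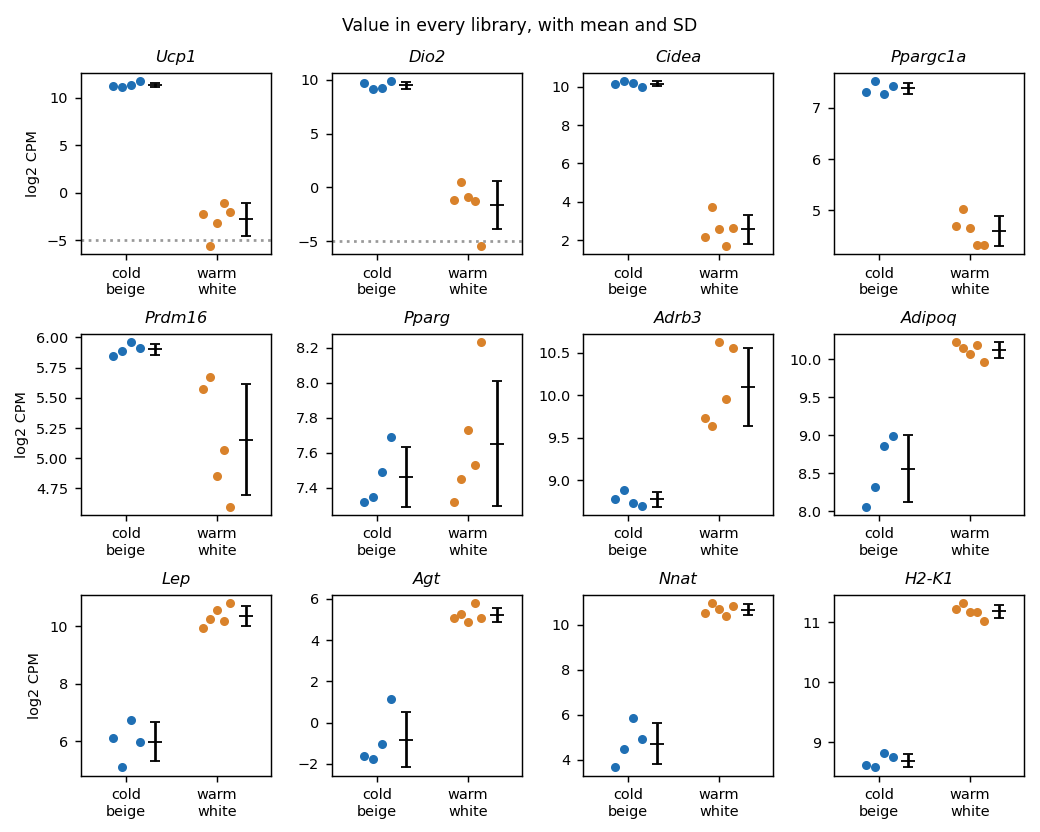
Log2 CPM of 12 genes in every library, cold beige in blue (4) and warm white in orange (5), with mean and SD beside the points and a separate vertical axis for each gene. The dotted line marks the floor of -5 log2 CPM. The groups are apart in every panel except Pparg, and the gap is narrow for Prdm16.

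Of the markers reported for beige cells, 4 of the 10 measured were higher and 3 lower, shares of 40.0% and 30.0%, and 5 were lower with the 9 libraries fitted alone. P2rx5, an ATP-gated channel, lay between 6.80 and 7.14 in cold beige and between 3.03 and 3.66 in warm white, a difference of 3.54 ± 0.13 (adjusted p = 2.24e-16). The amino acid transporter Slc36a2 was higher by 2.10 ± 0.17, and the T-box factor Tbx1 by 2.93 with 1 CPM added. Shox2 was higher by 1.10 (named because so few members passed). Klhl13, a ubiquitin ligase adaptor, was lower by 1.86 ± 0.18 and Hoxc9 was lower by 1.17. Nnat is on both the beige and the white marker lists.

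White adipocyte markers were lower almost throughout. Of 19 measured, 16 were lower, 84.2% against 37.2% of all rows, with a median of -2.44. Lep (chromosome 6, 29060221 to 29073876), which encodes leptin, was at 6.12, 5.08, 6.72 and 5.98 in cold beige and at 9.92, 10.25, 10.56, 10.19 and 10.80 in warm white. Every warm white library was far above every cold beige library. The difference was -4.37 ± 0.35 (adjusted p = 1.18e-10), 20.7-fold lower. Agt (chromosome 8, 124556587 to 124569706), which encodes angiotensinogen, was at -1.63, -1.77, -1.03 and 1.14 in cold beige and between 4.89 and 5.79 in warm white, a difference of -6.04 ± 0.77 (adjusted p = 2.52e-07), or -4.50 with 1 CPM added. Nnat, the imprinted gene of neuronatin, was lower by 5.96 ± 0.32 and Ccdc80, a matrix-associated adipocyte protein, by 4.58 ± 0.18. The cell cycle regulator Rb1 was the single member called higher, by 0.25, and that call was lost under 6 alternatives, adjusted p from 0.0533 to 0.179.

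Beyond the marker lists, large decreases among rows with a mean of at least 4 log2 CPM in the higher group were in genes of varied function. Prtn3, a serine protease best known from granulocytes, was at 0.07, -0.77, 0.22 and 0.98 in cold beige and at 6.86, 6.77, 7.32, 7.15 and 7.06 in warm white, a difference of -6.91 ± 0.52 (adjusted p = 4.32e-11). The membrane protein Emp1 was lower by 6.00 ± 0.36, thrombomodulin (Thbd) by 5.74 ± 0.42, the activin subunit Inhbb by 5.43 ± 0.29, and the sialyltransferase St6galnac5 by 5.53 ± 0.48. The warm white values of Thbd spread from 7.63 to 9.79 log2 CPM while its cold beige values stayed between 2.78 and 3.25. By p-value the clearest decreases were Asph, Fam102b, P4hb, H2-K1 and Fgfr1, at -2.44, -4.11, -2.33, -2.49 and -1.89.

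General adipocyte genes did not move as a group. Of 20 measured, 8 were higher and 10 lower (40.0% and 50.0%), with a median of -0.22. Adipoq, the gene of adiponectin, was at 8.06, 8.32, 8.86 and 8.99 in cold beige and at 10.22, 10.14, 10.06, 10.19 and 9.96 in warm white, a difference of -1.56 ± 0.15 (adjusted p = 1.74e-09). Within the cold beige group, the 2 highest and the 2 lowest values did not follow the processing batches, whose mean difference had already been removed. The complement protease Cfd (adipsin) was lower by 2.56 ± 0.18 and the carbonic anhydrase Car3 by 2.13 ± 0.18, while the acyltransferase Agpat2 was higher by 3.57 ± 0.17 and Gpd1, which makes glycerol 3-phosphate, by 3.18 ± 0.13.

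In adrenergic and cAMP signalling, 24 of 39 measured genes were higher and 13 lower (61.5% and 33.3%), with a median of 0.83. Among the receptors, Adrb3, the main beta receptor of mouse adipocytes, was lower: 8.78, 8.89, 8.73 and 8.70 in cold beige and 9.73, 9.64, 10.62, 9.95 and 10.55 in warm white, a difference of -1.32 ± 0.21 (adjusted p = 6.00e-06). The alpha receptor Adra1a was higher by 2.30 ± 0.08, and Adrb1, outside the naming rule, was higher by 1.62. Among the transducers, the inhibitory subunit Gnai1 was lower by 2.11 ± 0.12 and the stimulatory Gnas higher by 2.12 (chosen after its value was seen).

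Of the adenylyl cyclases, the naming rule picked Adcy3 and Adcy5, from opposite directions. The other listed members of the family are not given here. Adcy3 was at 9.41, 9.55, 9.53 and 9.43 in cold beige and at 5.96, 6.30, 5.93, 5.73 and 6.05 in warm white, higher by 3.49 ± 0.11 (adjusted p = 5.74e-18). Adcy5 was at 6.42, 6.31, 7.29 and 6.69 in cold beige and had a median of 9.39 and a highest value of 9.53 in warm white, lower by 2.65 ± 0.20 (adjusted p = 2.75e-11). Neither gene's groups overlapped. Pde4a, a phosphodiesterase that breaks down cAMP, was higher by 4.00 ± 0.10.

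Lipid handling shifted in its parts. Of 19 lipolysis and droplet genes 11 were higher and 7 lower (57.9% and 36.8%), with a median of 0.45. Plin5, the perilipin that ties droplets to mitochondria, was at 9.17, 8.90, 8.74 and 8.47 in cold beige and at 4.60, 5.29, 4.67, 4.34 and 4.63 in warm white, a difference of 4.11 ± 0.16 (adjusted p = 4.46e-16). Plin2 was higher by 2.94 ± 0.11. The perilipin Plin4 was lower by 1.80 ± 0.10 and the caveolar coat protein Ptrf by 1.77 ± 0.10. Lipe, hormone-sensitive lipase, differed by only -0.26 ± 0.08, and the call was lost with the 9 libraries fitted alone (adjusted p = 0.0577).

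In fatty acid uptake 11 of 19 genes were higher and 3 lower (57.9% and 15.8%). Besides Fabp3 and Slc27a2, the acyl-CoA synthetase Acsl5 was higher by 2.52 ± 0.09 and the lipoprotein receptor Vldlr by 2.03 ± 0.09. The lower members differed by small amounts, Acsl4 by -0.56, Dbi by -0.39 and Fabp4 by -0.37, and each of these calls was lost within at least 1 batch. Lipogenesis and triglyceride synthesis held 22 higher and 2 lower of 25 (88.0% and 8.00%), with a median of 1.29. Elovl6, the elongase that makes stearate, was at 11.58, 11.27, 11.26 and 11.11 in cold beige and between 5.53 and 5.81 in warm white, a difference of 5.67 ± 0.10 (adjusted p = 8.39e-22). The exceptions were the desaturase Fads1, lower by 2.58 ± 0.22, and Srebf1, the lipogenic transcription factor, lower by 0.45 ± 0.13 with overlapping groups and not called within batch 2 (adjusted p = 0.426).

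Most mitochondrial genes were higher. Of 33 fatty acid oxidation genes 30 were higher (90.9% against 38.0% of all rows), with a median of 2.30. Cpt1b, the muscle-type carnitine palmitoyltransferase that admits fatty acids to mitochondria, was at 9.41, 9.58, 9.78 and 9.98 in cold beige and at 0.97, 0.51, 0.45, -0.14 and -0.23 in warm white, a difference of 9.38 ± 0.20 (adjusted p = 1.38e-20). The carnitine carrier Slc25a20 was higher by 4.29 ± 0.09 and the dehydrogenase Acadl by 2.95 ± 0.08. The 2 lower members were peroxisomal, the transporter Abcd2 at -1.63 ± 0.11 and the thiolase Acaa1a at -0.35 ± 0.11, the latter with overlapping groups and not called within batch 1 (adjusted p = 0.147).

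Of 33 genes of the tricarboxylic acid cycle and pyruvate oxidation 30 were higher and 1 lower (90.9% and 3.03%), with a median of 2.33. Idh3a, the rate-controlling isocitrate dehydrogenase subunit, was at 10.69, 10.79, 10.83 and 10.76 in cold beige and at 7.08, 6.94, 6.65, 6.80 and 6.58 in warm white, a difference of 3.96 ± 0.11 (adjusted p = 5.43e-19). Mdh2, malate dehydrogenase, was higher by 2.50 ± 0.07. Pdk4, the kinase that switches pyruvate dehydrogenase off, was higher by 4.58 ± 0.12, and Pdp1, the phosphatase that switches it on, was lower by 1.00 ± 0.14.

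The respiratory chain was higher subunit by subunit. All 37 complex I genes were higher, 33 of them by at least 1 log2 unit (89.2% against 19.5% of all rows), with a median of 1.94 and a range from 0.26 to 3.78. Ndufa8 was higher by 2.45 ± 0.08 and Ndufa9 by 2.51 ± 0.09. All 13 measured genes of complexes II and III, cytochrome c included, were higher, with a median of 2.28, led by the core subunit Uqcrc2 at 3.49 ± 0.11 and cytochrome c (Cycs) at 3.42 ± 0.10. All 13 complex IV genes were higher, with a median of 1.71, and Cox5b by 2.53 ± 0.10.

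Among the oxidative phosphorylation lists, only that of ATP synthase held genes called lower. Of 14 measured genes 12 were higher and 2 lower (85.7% and 14.3%), with a median of 1.33. The other listed subunit c genes, Atp5g1 and Atp5g2, were not measured, nor was Atp5j. Atp5g3, a gene for the membrane ring subunit c, was at 7.61, 7.59, 7.48 and 7.33 in cold beige and at 7.94, 8.20, 7.87, 7.95 and 8.24 in warm white, a difference of -0.54 ± 0.10 (adjusted p = 5.09e-05). Atpif1, the inhibitor protein of ATP synthase, was at 2.94, 3.04, 2.74 and 2.89 in cold beige and at 3.98, 3.92, 4.21, 4.04 and 4.18 in warm white, a difference of -1.16 ± 0.11 (adjusted p = 8.53e-10). Both genes were lower in every cold beige library than in any warm white library. The stalk subunits were higher, Atp5o by 2.59 ± 0.12 and Atp5d by 2.24 ± 0.08.

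Of the 11 ATP synthase genes with a promoter window, 6 held the NRF1 element (54.5% against 12.1% of the table's symbols with a window), and these 6 included both lower genes. The 250 bases upstream of the 2 lower genes and of Cycs are shown, at chr2:73911327-73911576 for Atp5g3, chr4:132535415-132535664 for Atpif1 and chr6:50566570-50566819 for Cycs, all on the minus strand. Capitals mark the ERR element in Atp5g3 (on the reverse strand), the NRF1 element in Atpif1 and the CRE in Cycs. The NRF1 element of Atp5g3 lies after its start and is not shown.
Atp5g3: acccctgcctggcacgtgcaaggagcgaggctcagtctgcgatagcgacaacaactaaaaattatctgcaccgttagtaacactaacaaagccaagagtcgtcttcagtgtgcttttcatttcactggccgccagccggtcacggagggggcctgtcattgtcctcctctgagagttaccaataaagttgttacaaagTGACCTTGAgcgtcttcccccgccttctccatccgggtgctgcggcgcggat
Atpif1: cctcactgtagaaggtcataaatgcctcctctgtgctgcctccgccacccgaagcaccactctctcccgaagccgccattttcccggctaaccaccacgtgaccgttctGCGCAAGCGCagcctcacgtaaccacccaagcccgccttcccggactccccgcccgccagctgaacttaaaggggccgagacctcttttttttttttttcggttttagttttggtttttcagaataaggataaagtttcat
Cycs: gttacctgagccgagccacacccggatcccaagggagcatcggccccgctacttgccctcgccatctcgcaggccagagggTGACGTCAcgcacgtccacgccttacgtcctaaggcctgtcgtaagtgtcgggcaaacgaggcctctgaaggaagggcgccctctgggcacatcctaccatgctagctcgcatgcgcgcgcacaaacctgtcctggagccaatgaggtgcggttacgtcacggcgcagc

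The machinery that builds mitochondria was higher as well. Of 42 genes of the mitochondrial ribosome, protein import and mitochondrial dynamics 40 were higher and none lower, with a median of 1.49, and Chchd3, a protein of the cristae junctions, was higher by 2.47 ± 0.08. Of 30 genes of coenzyme Q, heme and cardiolipin synthesis 27 were higher and 1 lower, with a median of 1.25. Coq9 was higher by 3.01 ± 0.08, and Cpox, coproporphyrinogen oxidase of heme synthesis, was the lower one at -1.18 ± 0.12.

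Of 22 genes of branched-chain amino acid breakdown 16 were higher and 4 lower (72.7% and 18.2%), with a median of 0.82. Both subunits of the committed dehydrogenase step, Bckdha and Bckdhb, were higher, by 1.65 ± 0.07 and 1.52 ± 0.07, and the epimerase Mcee by 2.49 ± 0.07. The transaminase Bcat2, the first step of the pathway, was lower at 7.26, 7.47, 7.39 and 7.60 in cold beige and 8.47, 8.58, 8.12, 8.50 and 8.15 in warm white, a difference of -0.93 ± 0.09 (adjusted p = 4.16e-09). The symbol Bcat2 has 2 rows, of which the more abundant was taken. Ivd was lower by 0.52 ± 0.06, and the other lower members, Bcat1 and Acadsb, by 1.40 and 0.29.

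Of 33 genes of glucose uptake, glycolysis and glycogen 29 were higher and 2 lower (87.9% and 6.06%), with a median of 1.93. Enolase Eno1 was higher by 3.38 ± 0.09, the phosphoglycerate mutase Pgam1 by 2.72 ± 0.09 and the lactate dehydrogenase Ldhb by 3.98 ± 0.14. The insulin-responsive glucose transporter Slc2a4 was higher by 1.27 ± 0.08. The basal transporter Slc2a1 was lower by 0.60 ± 0.13 (adjusted p = 0.0665 within batch 1). Eno3, the muscle enolase, was lower by 0.78, but warm white library 2, which also stood apart in skeletal muscle genes, was at 4.10 against 2.78 to 2.85 in the other 4. It was not called within batch 1 (adjusted p = 0.0722) or within batch 2 (adjusted p = 0.133).

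Creatine and calcium cycling are UCP1-independent routes of heat. Of 9 measured genes 6 were higher and 2 lower. Creatine kinase Ckb was at 6.28, 6.61, 7.00 and 6.51 in cold beige and at 2.57, 3.63, 3.00, 2.95 and 3.83 in warm white, a difference of 3.40 ± 0.19 (adjusted p = 2.70e-13). The phosphatase Alpl was higher by 4.61 with 1 CPM added, and the calcium pump Atp2a2 by 1.47 ± 0.08. Gamt, the last enzyme of creatine synthesis, was lower by 2.53 ± 0.25. The muscle pump Atp2a1 was lower by 1.07 ± 0.36, a value that fell to -0.55 without warm white library 2, and its call was lost with the 9 libraries fitted alone (adjusted p = 0.0567).

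Related genes for the same protein function were set side by side in each library as a log2 ratio, which describes unequal change and not the level of either gene. In 13 of the 15 measured pairs the ratios of the groups did not overlap. The ratio of Cpt1b to the liver-type Cpt1a ran from 4.61 to 4.91 in cold beige and from -5.19 to -3.50 in warm white, with Cpt1a itself not called (0.24 ± 0.16, adjusted p = 0.160). The ratio of Cox8b to Cox8a ran from -0.44 to -0.07 against -5.94 to -5.16, and that of Cox7a1 to Cox7a2 from -0.17 to 0.54 against -11.36 to -6.45. The ratio of the liver glycogen synthase Gys2 to the muscle form Gys1 was higher by 6.04. The ratios of Slc2a1 to Slc2a4 and of Atp2a1 to Atp2a2 differed by -1.86 and -2.54. Only the adenine nucleotide carriers Slc25a4 and Slc25a5 and the coactivators Ppargc1a and Ppargc1b had overlapping ratios among the 15.

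**Figure D3:**
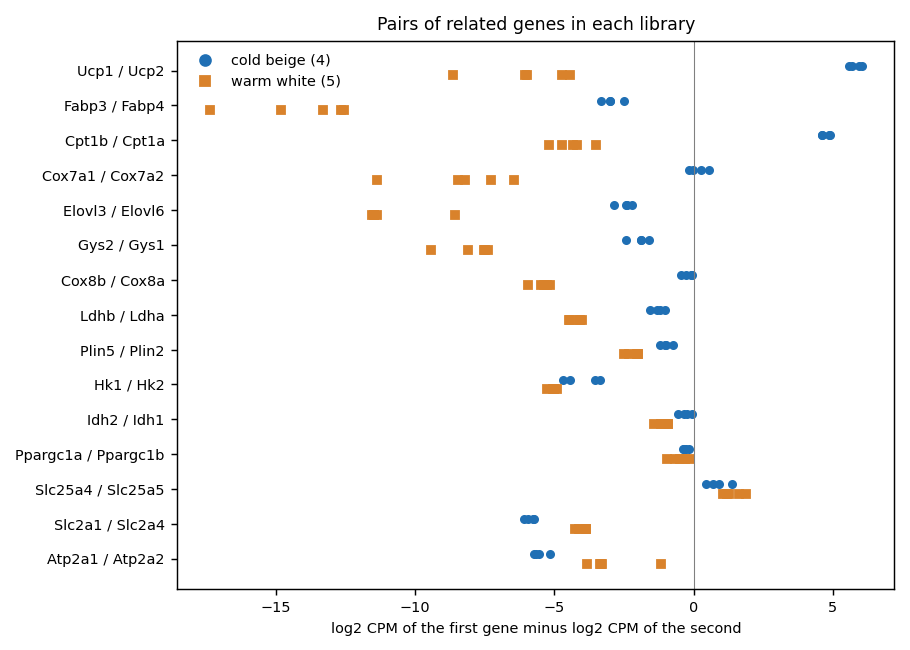
Log2 CPM of the first gene minus that of the second for 15 pairs of related genes, one point per library, cold beige as blue circles (4) and warm white as orange squares (5). The groups overlap for Ppargc1a to Ppargc1b and for Slc25a4 to Slc25a5. Ratios far to the left rest on first genes near or at the floor in the warm white libraries.

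Secreted factors differed in both directions, 16 of 43 higher and 23 lower (37.2% and 53.5%), with a median of -0.59. S100b, a calcium-binding protein with a neurotrophic role in thermogenic fat, was at 8.29, 8.43, 8.27 and 8.33 in cold beige and at 0.49, -0.24, 0.10, -0.68 and 0.54 in warm white, a difference of 8.29 ± 0.19 (adjusted p = 5.73e-20). It is also on the list of nerve and Schwann cell markers. The myelin gene Mbp was not called in the same comparison, at -0.13 (adjusted p = 0.316). Apolipoprotein E (Apoe) was lower by 2.99 ± 0.13 and the vessel-stabilizing factor Angpt1 by 2.54 ± 0.11.

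In insulin signalling 9 of 26 genes were higher and 13 lower (34.6% and 50.0%). The docking protein Irs1 was lower by 1.79 ± 0.11, the receptor Igf1r by 1.87 ± 0.11 and the adaptor Grb10, which restrains insulin signalling, by 2.19 ± 0.14. Mtor, the growth kinase, was higher, at 8.36, 8.49, 8.46 and 8.30 in cold beige and at 6.28, 6.32, 6.17, 6.22 and 5.90 in warm white, a difference of 2.22 ± 0.09 (adjusted p = 3.12e-16).

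Antigen presentation and interferon-response genes were lower. Of 21 class I presentation genes 18 were lower (85.7% against 37.2% of all rows), with a median of -1.51. H2-K1, a class I heavy chain, was at 8.62, 8.58, 8.82 and 8.76 in cold beige and at 11.23, 11.32, 11.18, 11.17 and 11.02 in warm white, a difference of -2.49 ± 0.08 (adjusted p = 2.75e-17). H2-D1 was lower by 2.55 ± 0.10 and the peptide transporter Tap2 by 2.18 ± 0.10. Class I heavy chain genes are near-identical copies, so reads may be split between them. The light chain B2m was lower by 1.09 ± 0.19. The proteasome activator genes Psme1 and Psme2 were higher, by 1.10 ± 0.09 and 0.39 ± 0.08, the latter not called within batch 1 (adjusted p = 0.0654).

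Of 38 interferon-response genes 29 were lower and 3 higher (76.3% and 7.89%), with a median of -1.44. The 4 genes of the list that the class I list also holds, Tap1, Psmb8, Psmb9 and Psmb10, were all lower, by 1.42 to 2.69. The ubiquitin ligase Trim25 was lower by 1.47 ± 0.10. Ifit3, an antiviral RNA-binding protein, was at 0.91, 0.01, 0.32 and 1.03 in cold beige and at 4.20, 4.30, 3.75, 4.16 and 4.36 in warm white, a difference of -3.59 ± 0.55 (adjusted p = 3.73e-06). Bst2 (tetherin) was lower by 1.89 ± 0.15 and the ubiquitin-like Isg15 by 2.38 ± 0.66. The higher members were Ifi27 at 1.18 ± 0.10, Gbp4 at 1.04 ± 0.27 and Dhx58 at 0.48 (the last chosen after its value was seen), and Gbp4 was not called within batch 2 (adjusted p = 0.140).

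Of the 26 interferon-response genes with a promoter window 13 held the ISRE core (50.0%), and of the 18 class I genes with a window 4 did (22.2%), against 3.55% of the table's symbols with a window. Of these, 4 windows of lower genes are shown, with the ISRE core on either strand in capitals. The window of Psme1, a class I gene that was higher in cold beige, also held the core and is not shown. The bases are those before the start, at chr4:156200819-156201068 on the minus strand for Isg15, chr19:34583279-34583528 on the plus strand for Ifit3, chr8:71537473-71537722 on the minus strand for Bst2 and chr2:122147437-122147686 on the plus strand for B2m. Isg15, Ifit3, Bst2 and B2m were chosen for display after their motifs and values were seen.
Isg15: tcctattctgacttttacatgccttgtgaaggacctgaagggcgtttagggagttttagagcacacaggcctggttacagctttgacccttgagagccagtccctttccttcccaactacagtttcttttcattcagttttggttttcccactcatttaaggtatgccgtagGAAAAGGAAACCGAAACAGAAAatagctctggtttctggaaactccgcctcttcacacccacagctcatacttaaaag
Ifit3: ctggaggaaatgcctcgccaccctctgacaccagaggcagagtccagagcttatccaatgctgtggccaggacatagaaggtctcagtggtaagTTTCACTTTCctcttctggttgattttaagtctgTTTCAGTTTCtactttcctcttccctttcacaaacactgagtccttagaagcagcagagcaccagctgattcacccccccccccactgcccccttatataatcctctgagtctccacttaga
Bst2: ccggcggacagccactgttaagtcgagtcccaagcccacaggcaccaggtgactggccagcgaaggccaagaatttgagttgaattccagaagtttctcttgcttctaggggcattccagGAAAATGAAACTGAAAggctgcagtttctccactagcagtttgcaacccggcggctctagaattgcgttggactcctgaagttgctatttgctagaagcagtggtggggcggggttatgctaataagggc
B2m: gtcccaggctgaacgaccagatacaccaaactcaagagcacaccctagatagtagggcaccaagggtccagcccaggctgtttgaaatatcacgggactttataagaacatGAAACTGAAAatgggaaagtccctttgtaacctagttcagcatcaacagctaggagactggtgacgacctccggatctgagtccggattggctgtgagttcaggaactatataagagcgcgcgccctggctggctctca

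Immune cells could also bring such genes into a pull-down. The summed CPM of 10 macrophage markers ran from 61.2 to 103 in cold beige and from 101 to 146 in warm white, with 1 of the 10 called higher (Lyz2, a call lost without cold beige library 2, 3 or 4 or warm white library 2, 3 or 5) and 2 lower (Cd14 and Mertk). Of the 14 lymphocyte markers, 2 were measured: Ptprc, which all leukocytes express, was not called (0.55 ± 0.40, adjusted p = 0.218), and Cd74, of antigen-presenting cells, was higher by 1.24 ± 0.26 but not called within batch 1 (adjusted p = 0.0538). The part of these cells in the class I and interferon differences was not tested. In bulk pull-downs such as these, fewer cells of a type and less RNA per cell cannot be told apart.

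Complement and acute phase genes were lower in 12 of 18 cases and higher in 3 (66.7% and 16.7%), with a median of -1.83. Complement component C4b was at 6.00, 6.33, 6.82 and 6.74 in cold beige and at 11.26, 11.43, 11.23, 11.46 and 10.99 in warm white, a difference of -4.80 ± 0.23 (adjusted p = 8.55e-15). C4b and C4a are near-identical copies. Haptoglobin (Hp) was lower by 3.02 ± 0.15, while the protease C1rl and the acute phase protein Orm1 were higher, by 1.50 ± 0.12 and 2.25 ± 0.26.

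Extracellular matrix genes were lower in 30 of 55 cases and higher in 11, so that 54.5% were lower, with a median of -1.04. The basement membrane collagen Col4a1 was at 9.55, 9.37, 9.52 and 9.17 in cold beige and at 11.03, 11.39, 11.22, 11.18 and 11.45 in warm white, a difference of -1.85 ± 0.10 (adjusted p = 1.11e-13). The laminin chain Lamc1 was lower by 1.88 ± 0.08 and the aggrecanase Adamts5 by 4.30 ± 0.23. The fibril-associated collagen Col12a1 was higher by 3.87 ± 0.28 and the laminin chain Lamb3 by 2.11 ± 0.15. The summed CPM of 18 fibroblast and preadipocyte markers was 1791 to 2239 in cold beige and 12484 to 14988 in warm white.

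The most abundant members of that sum were Gsn and Col3a1. Gelsolin (Gsn) was lower by 3.39 ± 0.17 and Col3a1 by 2.66 ± 0.25, while the progenitor markers Pdgfra and Pi16 were not called (0.20 and -0.37) and Pdgfrb and Gas1 were higher, by 1.22 and 3.42. Of the 18 fibroblast markers 3 were higher (1 without cold beige library 4) and 7 lower, 38.9% against 37.2% of all rows, with a median of -0.21. Their part in the matrix result was not tested.

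Positional homeobox genes, which record where along the body a cell arose, were lower in 14 of 27 cases and higher in 6 (51.9% and 22.2%), with a median of -0.55, although both groups came from the same depot. Hoxd8 was at 2.63, 1.82, 1.83 and 2.37 in cold beige and at 5.16, 5.19, 5.64, 5.83 and 5.68 in warm white, a difference of -3.34 ± 0.19 (adjusted p = 2.36e-13), and its neighbour Hoxd9 was lower by 3.67. Hoxa4 was higher by 2.75 ± 0.29. Antisense transcripts lie within the Hox clusters, and whether the counting used strand is not given in the sources used here.

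Stress and immediate early genes were mixed, 13 of 30 higher and 11 lower (43.3% and 36.7%), near the table's shares. Cdkn1a (p21), the cell cycle inhibitor, was higher by 3.82 ± 0.22, the nuclear receptor Nr4a1 by 2.89 with 1 CPM added, and the small heat shock protein Hspb1 by 2.84 ± 0.18, and the factor Klf6 was lower by 2.68 ± 0.22. In the cell cycle list 8 of 21 were higher and 11 lower (38.1% and 52.4%). The kinase Cdk6 was higher by 3.59 ± 0.16, the cyclin Ccnd2 lower by 2.33 ± 0.11 and the replication helicase subunit Mcm4 lower by 2.41 ± 0.14. Endoplasmic reticulum chaperones and folding enzymes were lower in 18 of 26 cases and higher in 5 (69.2% and 19.2%), with a median of -0.55. Xbp1, a transcription factor of the unfolded protein response, was lower by 2.62 ± 0.16 and the disulfide isomerase Pdia4 by 2.51 ± 0.13, while Atf6 was higher by 0.47 ± 0.07.

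Cytosolic ribosomal protein genes were lower in 33 of 62 cases and higher in 13 (53.2% and 21.0%), with a median of -0.36. Rpl22 was lower by 1.35 ± 0.12. Rpl10a, the gene of the protein that carries the GFP tag in these mice, was at 7.39, 7.84, 8.01 and 7.64 in cold beige and at 7.13, 6.91, 6.58, 6.60 and 6.69 in warm white, a difference of 0.94 ± 0.11 (adjusted p = 7.64e-08). Whether transcripts of the transgene were counted in that row was not tested. Many ribosomal protein genes have processed pseudogenes, so their counts are uncertain.

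Receptor and ion channel genes held large single differences in both directions. Of 17 metabolite and prostaglandin receptors 6 were higher and 9 lower (35.3% and 52.9%). The lactate receptor Hcar1 was at 5.79, 5.46, 6.56 and 5.98 in cold beige and at 8.33, 8.05, 8.77, 8.21 and 7.98 in warm white, a difference of -2.32 ± 0.24 (adjusted p = 7.25e-09). The lysophosphatidic acid receptor Lpar4 was lower by 3.52 ± 0.27, and the nucleotide receptor P2ry1 was higher by 3.77 ± 0.17. Of 23 ion channel genes 10 were higher and 5 lower (43.5% and 21.7%). The chloride channel protein Clic5 was higher by 6.35 ± 0.15, the potassium channel Kcnk2 was lower by 2.66 ± 0.19, and Kcnj11, a subunit of the ATP-sensitive potassium channel, was at 3.21 to 3.54 in cold beige and undetected in all 5 warm white libraries.

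Of 15 clock genes 5 were higher and 8 lower (33.3% and 53.3%). Cry1, a repressor of the clock, was higher by 3.05 ± 0.24 and Clock by 1.10 ± 0.08, and Nr1d1 was lower by 0.77 ± 0.06 and Rora by 0.73 ± 0.09. The hour of tissue collection is not given in the sources used here, and its part was not tested.

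Some markers of other cell types differed as well. All 18 endothelial markers were higher in cold beige, with a summed CPM of 494, 262, 303 and 592 in cold beige libraries 1 to 4 and of 80.1 to 131 in warm white. The 2 higher cold beige sums were those of batch 1. Kdr, the VEGF receptor of endothelium, was higher by 2.06 ± 0.35, and by 1.33 within batch 2 alone. Of 10 smooth muscle and pericyte markers 6 were higher (3 without cold beige library 4) and none lower, with sums of 364 to 577 against 177 to 278, and Rgs5, a pericyte gene, was higher by 2.85 ± 0.60 (1.42 within batch 2). The 3 measured red blood cell markers were higher at low levels, with sums of 14.5 to 21.4 against 2.35 to 7.71.

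Skeletal muscle markers summed to 43.6 to 103 CPM in cold beige and to 46.6 to 69.9 in 4 warm white libraries, and to 1041 in warm white library 2. Of the 15 measured, 2 were higher in cold beige, 4 lower and 9 not called (13.3% and 26.7%), with a median of -1.335. Across the alternative settings the number called lower ran from 0 to 11. The 2 higher members were myoglobin (Mb), by 4.00 with 1 CPM added, and Myl1, by 1.33 ± 0.24 with overlapping groups. Myl1 was not called within batch 1 (adjusted p = 0.106). The part of other cell types in the differences of the gene lists was not tested. The adipocyte markers themselves summed to 11852 to 13314 CPM in cold beige and 23480 to 29703 in warm white, with 2 of 10 higher and 7 lower.

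**Figure D4:**
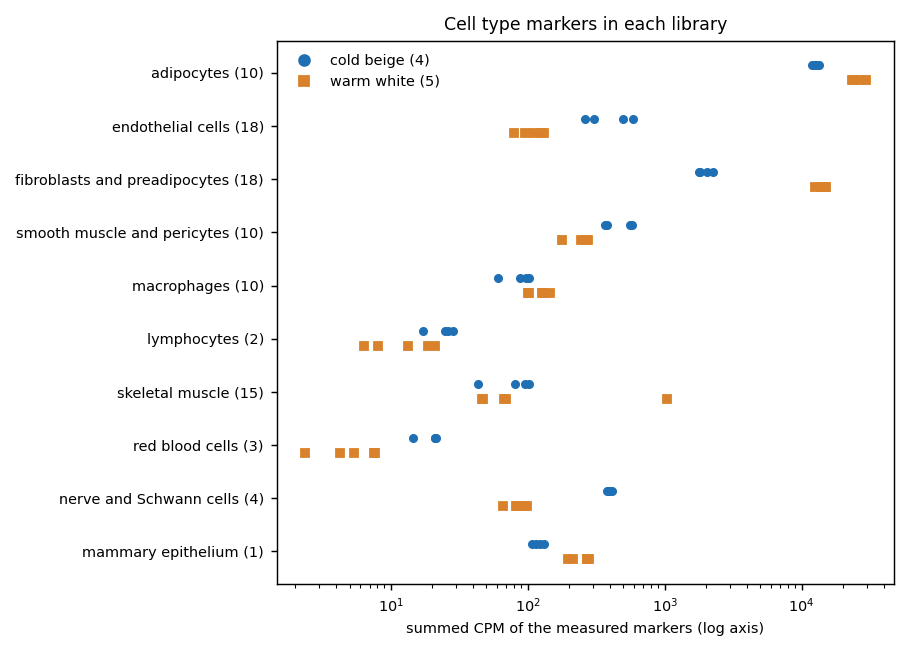
Summed CPM of the measured markers of 10 cell types in each library on a log axis, with the number of measured markers in brackets, cold beige as blue circles (4) and warm white as orange squares (5). Endothelial, smooth muscle and red blood cell sums are higher in cold beige, adipocyte and fibroblast sums are higher in warm white, and warm white library 2 stands at 1041 for skeletal muscle. S100b makes up most of the nerve sum in cold beige, and Mbp most of it in warm white.

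**Figure D5:**
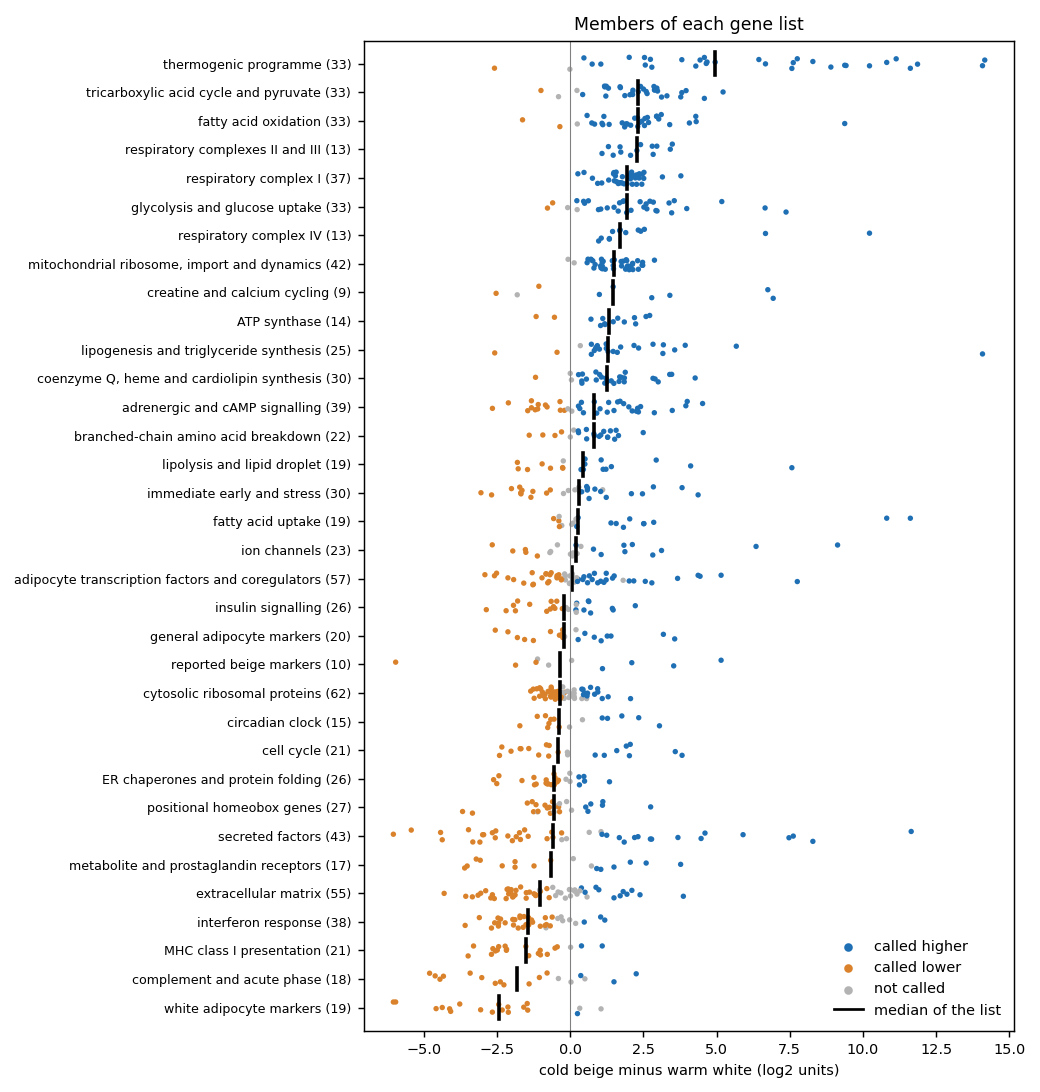
Cold beige minus warm white difference in log2 units for every measured member of 34 gene lists (number measured in brackets), ordered by the median, which is the black bar. Blue points are called higher, orange called lower and grey not called. The thermogenic list has the highest median at 4.95, lists of mitochondrial genes follow, and the white adipocyte markers are lowest at -2.44.

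The 3 beige libraries of mice returned to 30 °C for 4 weeks after the cold give a side-by-side level with no test. Ucp1 averaged 11.34 log2 CPM in cold beige, 1.03 in rewarmed beige and -2.82 in warm white libraries. Cidea averaged 10.14, 7.33 and 2.57 in the same order, Lep 5.97, 9.29 and 10.34, and H2-K1 8.70, 10.64 and 11.18. In each of these 4 genes the rewarmed beige mean lay between the other means. These 4 genes are examples and do not stand for all named genes, some of which lay outside that range. Agpat2 averaged 10.5 in cold beige, 6.04 in rewarmed beige and 6.97 in warm white libraries. Bst2 averaged 4.17, 6.77 and 6.06 in the same order. How many genes lay between the other means was not counted.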

How the data were processed

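TRAP mRNA of 22 libraries was sequenced on an Illumina HiSeq2500 after ribosomal RNA removal, per the labels' protocols. The values are log2 CPM that the authors deposited. HISAT2, Picard, featureCounts, edgeR and the build mm10 are named in the submitters' processing notes, without versions. Reads per library, and so counting error, are unknown.

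Differences were computed with limma 3.58.1 (R 4.3.3, limma-trend) on all 22 libraries with 5 group means and no covariate. Tests were two-sided, with 17 residual degrees of freedom and Benjamini-Hochberg adjustment over 11603 rows. These degrees of freedom do not count the batch term already removed from the deposited values. The fit was tested on simulated data. The alternatives covered scaling, CPM added, filters, batch, replicate block and left-out libraries. Of 11544 symbols 97.0% matched RefSeq (GRCm38.p6), whose coordinates and promoters are given.

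Members, lists and the naming rule were chosen with earlier results of these data known. The rule named 10 fixed genes, the smallest p-values in each list and table, isoform pairs, leading markers of other cell types, and rows at the floor. It also named the 10 largest differences in each direction among called rows without group overlap (higher group at least 4 log2 CPM). Rows undetected throughout either group were left out there, an exclusion added to the rule. Genes named outside it were chosen after their values were seen. The column name white_warm and the description white_rewarm differ, and the sample title was followed, so the temperature history of these mice rests on the treatment protocol in the labels.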

Additional observations from a re-analysis of the deposited data

Results flagged for a closer look

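Of 450 group values examined for a single library standing apart, 18 (4%) did so by Dixon's criterion, and chance gives about 1 in 20. Warm white library 2 gave 5 of them: it was high for the muscle genes Atp2a1 (7.18 log2 CPM), Des (4.28) and Eno3 (4.10) and for the summed skeletal muscle markers (10.02 as log2 of the summed CPM), and low for Gk (3.10). Warm white library 1 was high for Chchd3 (6.77) and low for Col3a1 (11.24) and for the summed smooth muscle markers (7.47 as log2 of the summed CPM). Warm white library 3 was low for Gys2 (-1.42) and high for Lamb3 (2.83). Warm white library 4 was low for Lhx8 (3.12), and warm white library 5 was low for Letmd1 (5.00) and high for Rpl22 (7.74). Cold beige library 1 was low for Cd74 (3.55), Orm1 (4.94) and the summed red blood cell markers (3.86 as log2 of the summed CPM). Cold beige library 2 was low for P4hb (6.20), and cold beige library 4 was high for Klhl13 (3.74).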

How the results depend on the processing

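Across 26 alternative settings the number of rows called ran from 6374 within batch 1 to 8924 with library weights, against 8731. Asking also for at least 1 log2 unit left 4057 calls, 2260 higher and 1797 lower, and with 5 CPM added 2600 rows passed both criteria. Leaving out 1 library at a time gave 8439 to 8639 calls, 4261 to 4365 higher and 4156 to 4274 lower, and 3985 to 4133 with at least 1 log2 unit. A common total shifted the median of all rows by -0.100 log2 units and made 45.5% of calls higher, against 50.6%. Same-numbered libraries did not deviate together (correlations from -0.167 to 0.093 for title numbers and from -0.263 to 0.01 for library numbers). With 4 same-numbered pairs this cannot decide whether the numbers pair the samples. With the replicate number as a block 8655 rows were called by title number and 8632 by library number, or 8126 by title number with the 9 libraries alone, and 1 cold beige library correlated best with its own number. Of 5771 named gene values under the alternatives, 46 lost and 4 gained a call and 0 reversed, over 22 genes. Depth is not known from log2 CPM, so what it limits cannot be computed.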
